A study of Mus musculus with 12 samples.

Results

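The acute phase proteins examined here were 10 plasma proteins made largely by hepatocytes, encoded by Saa1, Saa2, Saa4, Orm1, Orm2, Lcn2, Hp, Hpx, Crp and Apcs. The members were taken by gene symbol from a table of 21705 genes, and all 10 were found in it. The livers came from 12 female C57BL/6J mice aged 10 to 12 weeks, and their mRNA was sequenced. One group of 6 received saline into the tail vein, and the other group of 6 received LNA29, a pair of locked nucleic acid inhibitors of which one is directed at miR-29a and the other at miR-29b and miR-29c, at 20 mg/kg each. All mice were fasted for 18 hours before their livers were collected on day 7 and flash frozen. The saline mice received no oligonucleotide, the inhibitors were given to the whole animal, and the sequenced material was whole liver. miR-29 itself is not measured in mRNA libraries of this kind.

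The acute phase response is the change in plasma protein synthesis that follows infection, injury or other inflammation. Cytokines such as interleukin 6 and interleukin 1 act on hepatocytes through the gp130, JAK and STAT3 pathway and through NF-kB and C/EBP factors, and the genes of positive acute phase proteins are then transcribed more strongly, while those of negative acute phase proteins such as albumin are transcribed less. In mice the serum amyloid A genes Saa1 and Saa2 have the widest range, and C-reactive protein, a major acute phase protein in humans, responds only weakly. Saa4 is a constitutive member of the serum amyloid A family.

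The 3 miRNAs targeted by the inhibitors share a seed, the bases 2 to 8 that pair with target mRNAs, which stands in capitals in their mature RefSeq sequences. They are shown because they define the treatment and the site that was searched for in the members.
mmu-miR-29a-3p: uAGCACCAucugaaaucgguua
mmu-miR-29b-3p: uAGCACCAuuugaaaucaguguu
mmu-miR-29c-3p: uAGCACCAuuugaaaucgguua
The 7 bases complementary to this seed, TGGTGCT, were present in the longest annotated 3′ UTR of 0 of the 10 members (GENCODE M21 on GRCm38). Among the 11095 tested genes with an annotated 3′ UTR, 15.6% held them. The UTRs of the members ran from 69 bases in Hpx to 1524 bases in Saa4. The absence of these letters says nothing about sites elsewhere in the transcript.

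The deposited values are reads per gene scaled within each library, called scaled reads below, in which 1 read was worth between 9.80 and 24.4 units. Each library held between 7696081 and 19062437 reads on genes. The saline libraries were the deeper ones, with a median of 12011981.5 reads against 9123458 in the LNA29 libraries. The median worth of 1 read was 12.9 units in saline and 18.4 units in LNA29 libraries. All 10 members passed the filter of a mean of 10 scaled reads over the 12 livers, as did 12486 genes in all. The library of saline replicate 49 stood apart in its overall makeup, with 35.7% of its reads on albumin against 43.6% to 46.9% in the other 11 livers. It was the lowest of the 12 livers for 4 members (Orm1, Lcn2, Hp and Hpx) and the highest for Crp. Values without this library are also given for all members except Saa4 and for some list medians. Saa4 had a log2 difference of −0.50 with it and of −0.52 without it. Because this library was picked partly by the values of members, p-values without it are no separate support. In bulk liver, fewer cells of a type and less RNA per cell cannot be told apart.

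None of the 10 members passed an adjusted p of 0.05 in the comparison of LNA29 with saline by limma, with Benjamini-Hochberg adjustment over all tested genes, where 0.16% of all genes did. The smallest adjusted p of a member was 0.405, for Orm2. On the log2(value + 1) scale 8 of the 10 members had a negative difference, and the median of the members was −0.67 beside −0.09 over all tested genes. Saa4, Orm1, Orm2, Lcn2 and Apcs, 5 members in all, were lower at an unadjusted limma p under 0.05, and none was higher at that level. Of the 12486 tested genes, 745 (5.97%) were lower and 243 were higher at that level. The groups overlapped for each of the 10 members, and they failed to overlap for 0.985% of all tested genes.

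The number of members lower at that unadjusted level depended on the livers and on the scaling. It came to 3 (Orm2, Lcn2 and Apcs) when the libraries were brought to a common median. With TMM scaling it was 2 (Orm2 and Lcn2), with array weights 6, and in edgeR and DESeq2 4 each. It ran from 1 to 8 when a liver was left out. All genes at that level in either direction numbered 988 in the main fit, 889 at the common median and 879 with TMM scaling. They numbered 1345 with array weights, 683 in edgeR and 792 in DESeq2, and 805 to 1145 with a liver left out. These counts hold both directions, so they are no direct background for the members that were lower. edgeR and DESeq2 also selected genes in their own ways and not by the filter above. The share of genes lower was computed only for the main fit and the fit without saline replicate 49. The number of members lower came to 8 without saline replicate 49, all members except Hpx and Crp, where 5.64% of all genes were lower. In that fit Lcn2 alone passed the adjusted threshold in limma, where 0.152% of all genes passed it.

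**Figure D1:**
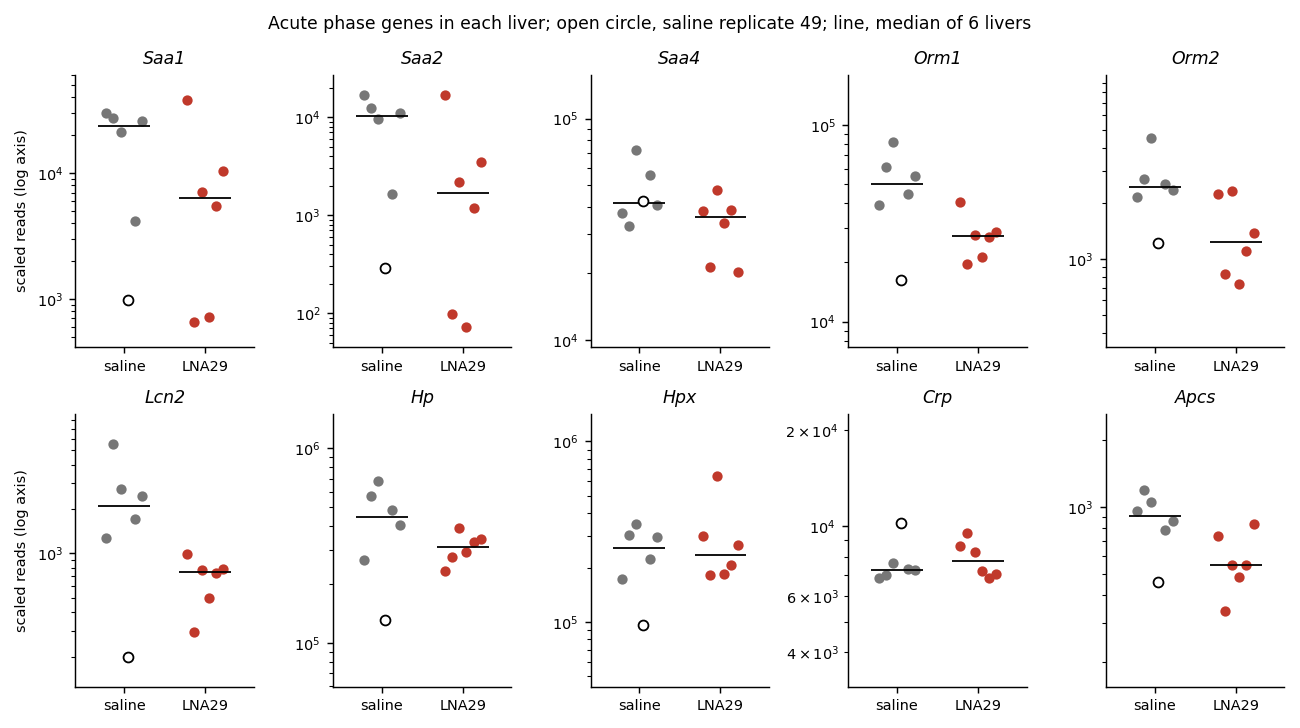
Scaled reads of the 10 acute phase genes in each of the 6 saline and 6 LNA29 livers, on log axes that differ between panels. Each point is a liver, the open circle is saline replicate 49 and the line is the median of the group. Lcn2 was higher in 5 of the 6 saline livers than in any LNA29 liver, whereas Crp hardly varied in either group.

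**Figure D2:**
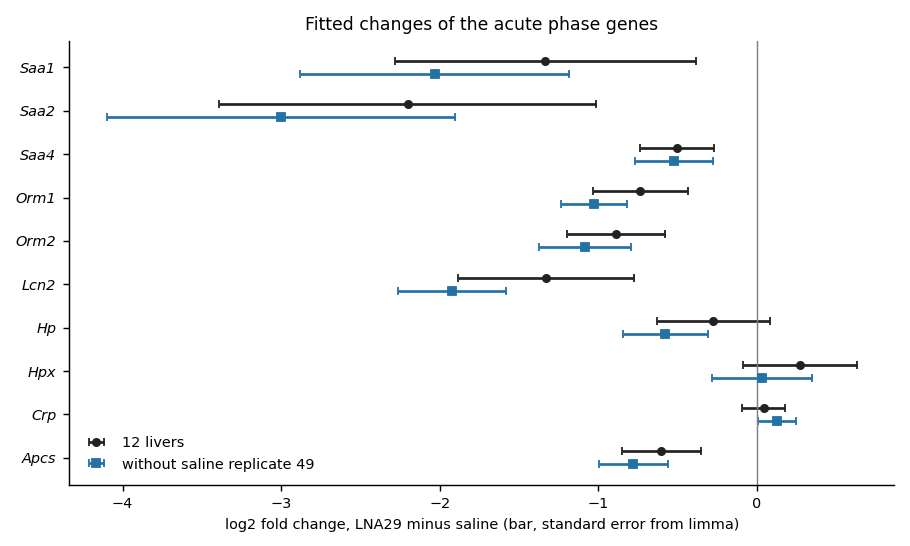
Log2 fold change of each gene, LNA29 minus saline, with its standard error from limma, over all 12 livers (circles) and without saline replicate 49 (squares). Leaving out that liver moved Lcn2 from −1.33 to −1.93 and Hpx from 0.27 to 0.03.

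Saa1 and Saa2 encode the inducible serum amyloid A proteins, small apolipoproteins of high-density lipoprotein. Saa1 was at 988, 23680.3 and 30112 scaled reads in the lowest, median and highest saline liver, and at 659, 6301 and 37906 in the LNA29 livers. Saa2 was at 292, 10328 and 16685 in the saline livers and at 71.4, 1680 and 17069 in the LNA29 livers. LNA29 replicate 44 was the highest of all 12 livers for both genes, and LNA29 replicates 46 and 50 were below every saline liver. The saline livers were also split, with saline replicates 49 and 51 far below the other 4. The highest and lowest livers of a group were 30.5-fold apart for Saa1 among saline mice and 57.6-fold apart among LNA29 mice. For Saa2 the same spans were 57.1-fold and 239-fold, and its lowest values rested on 4 reads each in LNA29 replicates 46 and 50.

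On the log2 scale the difference was −1.33 for Saa1 (SE 0.95, adjusted p = 0.796 by limma) and −2.20 for Saa2 (SE 1.19, adjusted p = 0.706 by limma). Exact permutation tests over the livers, all two-sided, gave p = 0.288 for Saa1 and p = 0.190 for Saa2. With saline replicate 49 left out, the differences were −2.03 for Saa1 and −3.002 for Saa2, with adjusted p-values of 0.528 and 0.421 by limma and exact p-values of 0.115 and 0.0844. Both differences were smaller than the spread between mice of one group, whose pooled SD on the log2 scale was 2.16 for Saa1 and 2.70 for Saa2. That spread was wider than the one of 98.1% and of 99.8% of all tested genes. Comparing the group means instead, as the count models do, gave −0.80 for Saa1 and −1.07 for Saa2 in edgeR. A sum of both genes differed by −1.52 on the log2 scale (adjusted p = 0.773 by limma).

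The promoters of Saa1 and Saa2 are shown because the mRNAs of these genes moved together more closely than any other pair of members. They are from RefSeq on GRCm38.p6, cover 250 bases before and 50 after the start, and carry the C/EBP-type letters TTGCNNAA, searched on both strands, in capitals. Saa1 lies at chr7:46742931-46743230 on the minus strand and Saa2 at chr7:46751583-46751882 on the plus strand.
Saa1: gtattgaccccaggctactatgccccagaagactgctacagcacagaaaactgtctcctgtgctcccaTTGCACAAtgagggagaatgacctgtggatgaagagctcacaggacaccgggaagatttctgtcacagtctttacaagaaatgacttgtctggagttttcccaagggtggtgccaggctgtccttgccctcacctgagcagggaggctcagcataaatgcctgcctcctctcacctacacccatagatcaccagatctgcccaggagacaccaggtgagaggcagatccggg
Saa2: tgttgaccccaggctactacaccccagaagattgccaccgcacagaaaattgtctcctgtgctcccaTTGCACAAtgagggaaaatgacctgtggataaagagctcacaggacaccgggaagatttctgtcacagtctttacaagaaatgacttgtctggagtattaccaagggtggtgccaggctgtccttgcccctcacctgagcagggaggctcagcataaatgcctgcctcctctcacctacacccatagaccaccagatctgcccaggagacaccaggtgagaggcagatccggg
In a global alignment 287 bases were identical, 12 differed and 2 were gaps, which is 95.4% identity, while the other 27 pairs of member promoters were between 43.8% and 51.9% identical. The C/EBP-type letters begin 182 bases before the start of Saa1 and 183 before that of Saa2. They were found in 6 of the 8 member promoters in the table, those of Saa1, Saa2, Saa4, Orm2, Lcn2 and Hpx, and in 10.8% of all 32851 promoters. A match of letters is a description and not a bound site.

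Over the 12 livers, the deviations of Saa1 and Saa2 from their group means had a Pearson r of 0.994 and a Spearman rho of 0.979. Both permutation p-values were 1e-05, the smallest that 100000 permutations within groups can give, and the r was 0.993 without the 2 livers farthest from the median. Because the mature mRNAs are also alike, reads may have been divided between the genes by the authors' estimation, and single values of either are uncertain to that extent. The part of such a division in the r and its p-values was not tested. The ratio of Saa2 to Saa1 ran from 0.296 to 0.554 in saline and from 0.1 to 0.450 in LNA29 livers. Its log2 difference was −0.87, with an exact two-sided p of 0.0325 that came to 0.0877 after adjustment over 3 ratios of members. This ratio was chosen after its values were seen, and leaving out a liver moved the exact p between 0.00866 and 0.0736. In LNA29 replicate 50, where the ratio was lowest, Saa2 made up 9.09% of the 44 reads on both genes (exact 95% binomial interval 2.53% to 21.7%, counting error only).

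**Figure D3:**
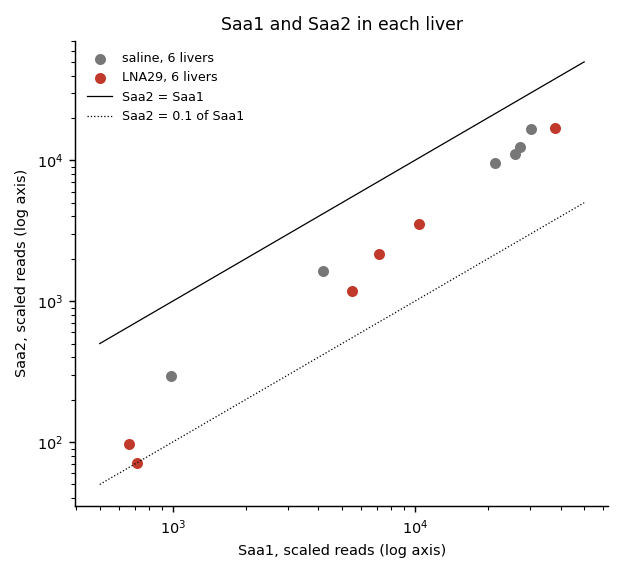
Scaled reads of Saa2 against Saa1 in each liver, both axes logarithmic, with saline livers in grey and LNA29 livers in red. The solid line marks equal values and the dotted line a ratio of 0.1. The livers follow one band over the whole range, with LNA29 replicate 50 on the dotted line.

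Saa4, the constitutive member of the family, was far steadier. It was at 32651, 41627 and 71947 scaled reads in the lowest, median and highest saline liver and at 20369.9, 36048 and 47830.2 in the LNA29 livers. Of the LNA29 livers, 2 were below every saline liver. The log2 difference was −0.50 (SE 0.23, adjusted p = 0.621 by limma), and the exact permutation p was 0.102. Saa4 did not share the deviations of its relatives, with an r of 0.13 with Saa1 (permutation p = 0.717, rho −0.15 with permutation p = 0.650, r −0.17 without the 2 farthest livers).

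Orm1 and Orm2 encode orosomucoid, the alpha-1-acid glycoproteins that carry lipophilic compounds in plasma. Orm1 was at 16272, 49872 and 82031 scaled reads in the lowest, median and highest saline liver and at 19584, 27354 and 40777 in the LNA29 livers. Of the saline livers, 4 were above every LNA29 liver, and the single saline liver below them was replicate 49. Orm2 was at 1228, 2462 and 4531 in the saline livers and at 731, 1239 and 2341 in the LNA29 livers. Every LNA29 liver was below the saline median for both genes.

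The log2 differences were −0.74 for Orm1 (SE 0.30, adjusted p = 0.513 by limma) and −0.89 for Orm2 (SE 0.31, adjusted p = 0.405 by limma). Exact permutation gave p = 0.0714 for Orm1 and p = 0.0411 for Orm2, and the latter rose to 0.0844 when the libraries were brought to a common median. Without saline replicate 49 the differences came to −1.03 and −1.08, with exact p-values of 0.00649 and 0.0216 and an adjusted p of 0.0576 for Orm1 and 0.211 for Orm2 by limma. Without saline replicate 47 they were −0.56 and −0.71, with exact permutation p-values of 0.147 and 0.0844. Orm3, the other gene of the cluster, was at 379 ± 203 (SD, n = 6) in saline and 232 ± 118 (SD, n = 6) in LNA29 livers, with a log2 difference of −0.69 (exact permutation p = 0.368), or −1.16 without saline replicate 49. The Orm genes are close copies, so reads may have been divided between them, and the sum of all 3 differed by −0.74 on the log2 scale. The ratio of Orm2 to Orm1 was between 0.0429 and 0.0754 in saline and between 0.0341 and 0.0848 in LNA29 livers (exact p = 0.491).

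Lcn2 encodes lipocalin 2, which binds bacterial siderophores and so withholds iron from bacteria. It was at 200, 2084 and 5524 scaled reads in the lowest, median and highest saline liver and at 293, 755 and 988 in the LNA29 livers, from 20 to 348 reads and from 12 to 79 reads. All saline livers but replicate 49 were above every LNA29 liver. The means were 2315 ± 1811 and 678 ± 245 (SD, n = 6 each). The log2 difference was −1.33 (SE 0.55, adjusted p = 0.536 by limma, exact permutation p = 0.0974). Without saline replicate 49 it was −1.93 (SE 0.34, adjusted p = 0.0365 by limma). Leaving out the only saline liver not above every LNA29 liver fixed in advance that the groups did not overlap. The exact permutation p was then 0.00216, the smallest that 5 livers against 6 allow, and it is no separate support.

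Lcn2 is also made by neutrophils and other myeloid cells. Of the 12 neutrophil markers in the table, 9 were at 3 reads or fewer in every liver, S100a8, Camp, Elane and Mpo among them. The summed level of the list ran from 87.1 to 158 scaled reads in saline and from 58.8 to 251 in LNA29 livers, and it was 119 in saline replicate 49.

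Hp encodes haptoglobin, which binds free haemoglobin, and Hpx encodes hemopexin, which binds free haem. These genes held between 75.9% and 91.4% of all reads on the members. Hp was at 131330.0, 443629.8 and 683737 scaled reads in the lowest, median and highest saline liver and at 235812, 312528 and 388358 in the LNA29 livers. Hpx was at 96340.0, 258221 and 348246 in the saline livers and at 181244, 236141 and 645698 in the LNA29 livers. For Hp 4 saline livers were above every LNA29 liver, while for Hpx the top liver was LNA29 replicate 48. Of the other saline livers for Hp, replicate 43 lay within the LNA29 range and replicate 49 below it.

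The log2 difference was −0.28 for Hp (SE 0.36, adjusted p = 0.911 by limma, exact permutation p = 0.489) and 0.27 for Hpx (SE 0.36, adjusted p = 0.917 by limma, exact permutation p = 0.526). Without saline replicate 49 Hp came to −0.58 (exact p = 0.0411, adjusted p = 0.617 by limma) and Hpx to 0.03 (exact p = 0.939). Without saline replicate 47 they came to −0.10 and 0.40, with exact permutation p-values of 0.801 and 0.398. The ratio of Hpx to Hp ran from 0.462 to 0.734 in saline and from 0.627 to 1.66 in LNA29 livers. Its log2 difference of 0.55 had an exact p of 0.0584, which was 0.0877 after adjustment over the 3 ratios. The receptors that clear the complexes were both measured. Cd163, the haptoglobin-haemoglobin receptor of macrophages, differed by −0.07 (exact permutation p = 0.814). Lrp1, the hemopexin-haem receptor, was at 16005 ± 2686 in saline and 11679.8 ± 1503 in LNA29 livers (SD, 6 mice each), a log2 difference of −0.45 (exact permutation p = 0.00866, adjusted p = 0.315 by limma).

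Crp and Apcs encode the short pentraxins, C-reactive protein and serum amyloid P component, which bind microbial surfaces and cell debris. Crp was at 6875, 7274 and 10210.0 scaled reads in the lowest, median and highest saline liver and at 6868, 7749 and 9512 in the LNA29 livers. The saline maximum was replicate 49, and the other 5 saline livers were all below 7632. Its pooled SD on the log2 scale of 0.20 was larger than that of 4.57% of tested genes, and the log2 difference was 0.04 (SE 0.14, adjusted p = 0.971 by limma, exact permutation p = 0.706). It came to 0.13 without saline replicate 49 (exact permutation p = 0.188). Apcs was at 460.0, 908 and 1190.5 in the saline livers and at 341, 547 and 836 in the LNA29 livers. Of the saline livers, 4 were above every LNA29 liver, and replicate 49 was below 5 of them. The log2 difference of Apcs was −0.60 (SE 0.25, adjusted p = 0.525 by limma, exact permutation p = 0.0563), and without saline replicate 49 it was −0.78 (exact permutation p = 0.0130, adjusted p = 0.238 by limma). Without LNA29 replicate 46 it was −0.46 (exact permutation p = 0.104).

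The promoters of both pentraxins are shown as a description, with matches on either strand in capitals. The part of these letters in the levels of the genes was not tested. Apcs lies at chr1:172895005-172895304 on the minus strand and Crp at chr1:172697806-172698105 on the plus strand (RefSeq, GRCm38.p6).
Apcs: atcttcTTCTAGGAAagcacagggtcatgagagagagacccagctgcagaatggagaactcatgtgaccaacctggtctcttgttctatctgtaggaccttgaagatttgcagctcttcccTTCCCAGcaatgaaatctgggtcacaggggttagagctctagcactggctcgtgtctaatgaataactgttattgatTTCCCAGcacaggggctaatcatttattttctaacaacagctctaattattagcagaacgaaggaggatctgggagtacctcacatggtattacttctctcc
Crp: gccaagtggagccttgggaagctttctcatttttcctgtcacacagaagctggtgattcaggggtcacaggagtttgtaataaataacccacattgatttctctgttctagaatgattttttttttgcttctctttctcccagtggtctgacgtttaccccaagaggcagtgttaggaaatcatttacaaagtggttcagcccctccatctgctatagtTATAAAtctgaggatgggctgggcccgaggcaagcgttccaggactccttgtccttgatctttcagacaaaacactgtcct
Of the 8 member promoters, that of Apcs alone held the STAT letters TTCNNNGAA, which begin 244 bases before its start, and the letters CTGGGAA of the IL-6 response element, which begin 129 and 52 bases before it on the other strand. These letters were in 8.30% and 11.1% of all promoters. That of Crp held the TATA box letters TATAAA, 31 bases before the start, as did that of Orm2, 33 bases before it, and 13.6% of all promoters held them. The promoters of Orm1 and Hp were not analysed here.

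**Figure D4:**
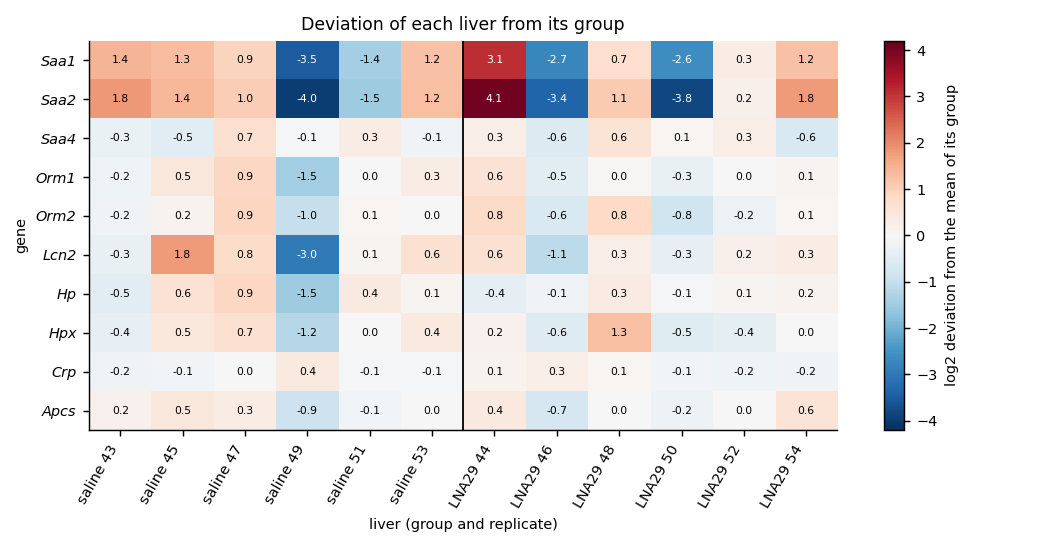
Deviation of each liver from the mean of its own group on the log2 scale, for 10 genes (rows) and 12 livers (columns), with the values printed in the cells and a line between the groups. Saline replicate 49 and LNA29 replicates 46 and 50 are low for most genes. LNA29 replicate 44 is high for Saa1 and Saa2, at 3.1 and 4.1.

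Within the groups, many pairs of members varied together from mouse to mouse. Among the 45 pairs of members, 37 had a positive Pearson r of the deviations over the 12 livers, with a median of 0.63. A permutation p of the Pearson r within groups, adjusted over the 45 pairs, was under 0.05 for 22 of them. The share was not computed for pairs of genes outside the members, so the count is not shown to be particular to them. The livers of a pair share their library and its scaling, and without saline replicate 49 the median r was 0.48. Apcs followed Saa1 with an r of 0.88 (permutation p = 0.00057, adjusted 0.00513) and a rho of 0.90 (permutation p = 0.0006), and the r was 0.73 without the 2 livers farthest from the median of Saa1. Lcn2 followed Orm1 with an r of 0.93 (permutation p = 0.00071, adjusted 0.00533) and a rho of 0.98 (permutation p = 2e-05), and the r was 0.88 without the 2 farthest livers. Hpx followed Orm2 with an r of 0.88 (permutation p = 4e-05, adjusted 0.0009) and a rho of 0.93 (permutation p = 6e-05), with 0.82 without the 2 farthest livers. Without saline replicate 49 the r was 0.81 for Apcs with Saa1, 0.77 for Lcn2 with Orm1 and 0.83 for Hpx with Orm2.

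The r of Hp with Saa1 was 0.41 (permutation p = 0.188, rho 0.15 with permutation p = 0.669) and −0.10 without saline replicate 49. The r of Hp with Orm1 was 0.81 (permutation p = 0.0165, adjusted 0.0372, rho 0.62 with permutation p = 0.0600), but 0.45 without saline replicate 49 and 0.25 without the 2 livers farthest from the median of Orm1, so that the relation rests on those livers. With Hpx and Lcn2 the r of Hp was 0.57 and 0.50 without saline replicate 49. Crp had a negative r in 8 of the 9 pairs that hold it, but in 5 of the 9 without saline replicate 49. The lowest was −0.70 with Lcn2 (permutation p = 0.0400, adjusted 0.0692, rho −0.19 with permutation p = 0.549). That lowest value was −0.28 without the 2 farthest livers and −0.24 without saline replicate 49.

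Among 8989 genes with a mean of at least 100 scaled reads, the 2 genes most like Saa1 in their deviations were members, Saa2 and Apcs, at ranks 1 and 2. The 5 nearest genes outside the members were Ces3a, a carboxylesterase, at an r of 0.85, Cpb2, a plasma carboxypeptidase, at 0.84, Fgl1, a secreted fibrinogen-like protein, at 0.84, Gtf3a at 0.81 and Art4 at 0.81. Orm1 was most like Lcn2, followed by Prelid1 at 0.92, Enho at 0.92, Eif3h at 0.92, albumin at 0.91 and Serpina1c at 0.90. Without saline replicate 49 these 10 values fell to between 0.67 and 0.79. In likeness to Orm1 the other members stood at ranks 27 (Apcs), 33 (Orm2), 41 (Hp), 56 (Saa1), 110 (Hpx), 125 (Saa2), 2520 (Saa4) and 8020 (Crp). In likeness to Saa1 they stood at ranks 9 (Orm1), 13 (Orm2), 19 (Lcn2), 112 (Hpx), 947 (Hp), 3449 (Saa4) and 8676 (Crp). These values and ranks are a description over 12 livers that share their scaling, without a test.

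Per kilobase of the longest annotated transcript, the mean level in saline livers fell in the order Hp, Hpx, Orm1, Saa1, Saa4, Saa2, Crp, Orm2, Lcn2 and Apcs. It ran from 314610 scaled reads per kilobase for Hp to 911 for Apcs. Hp stood above Hpx, Hpx above Orm1 and Orm1 above Saa1 in all 6 saline livers. The neighbours from Saa1 to Apcs were each in the stated order in only 4 or 5 of the 6 livers, so their order does not hold from mouse to mouse. In the LNA29 livers the order of the means was the same, but Hp was above Hpx in 4 of 6 livers, and Saa1 was above Saa4 and Saa2 above Crp in 2 of 6 each. In all, the 10 members took 0.365% to 0.570% of a saline library and 0.272% to 0.665% of an LNA29 library. Without Hp and Hpx the share was 0.0668% to 0.0928% in saline and 0.0281% to 0.0779% in LNA29 livers.

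Of 19 other positive acute phase genes, all tested, 2 were lower and 1 was higher at an unadjusted limma p under 0.05, with a median log2 difference of −0.11 beside −0.09 over all tested genes. The lower genes were Itih4, a heavy chain of the inter-alpha-trypsin inhibitor family, at −0.70 (adjusted p = 0.528) and Lrg1, a leucine-rich plasma glycoprotein, at −0.71 (adjusted p = 0.501). The higher gene was Il1rn, the interleukin 1 receptor antagonist, at 0.57 (adjusted p = 0.513). With saline replicate 49 left out, 4 genes of this list were lower and 0 higher, with a median of −0.20. The fibrinogen chains Fga, Fgb and Fgg had log2 differences of −0.04, 0.05 and 0.09. Saa3, the serum amyloid A gene expressed mainly outside hepatocytes, had 6 to 20 reads in saline and 0 to 16 reads in LNA29 livers, with a log2 difference of −1.59 (exact permutation p = 0.139).

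Of 10 negative acute phase genes, all tested, 1 was lower and 1 higher at the same level, with a median of −0.01, or −0.18 without saline replicate 49. Serpina6, which encodes the corticosteroid-binding globulin, was lower by a log2 difference of −0.93 (adjusted p = 0.455 by limma). Ahsg, which encodes fetuin-A, an inhibitor of calcium deposition, was at 1212500.0 to 4270490.2 scaled reads in saline and 7841411 to 10351189 in LNA29 livers. Its groups did not overlap, and the log2 difference was 1.67 (exact permutation p = 0.00216, adjusted p = 0.582 by limma). Adjusted p-values for Ahsg came to 0.0702 in edgeR and 1.75e-07 in DESeq2, so its call depends on the tool. The limma standard error of 0.73 was set largely by a prior that depends on the mean level, and only 2 genes had a higher mean than Ahsg. Its own spread gives a standard error of 0.28. Albumin differed by 0.20 (exact permutation p = 0.699), or by −0.05 without saline replicate 49.

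**Figure D5:**
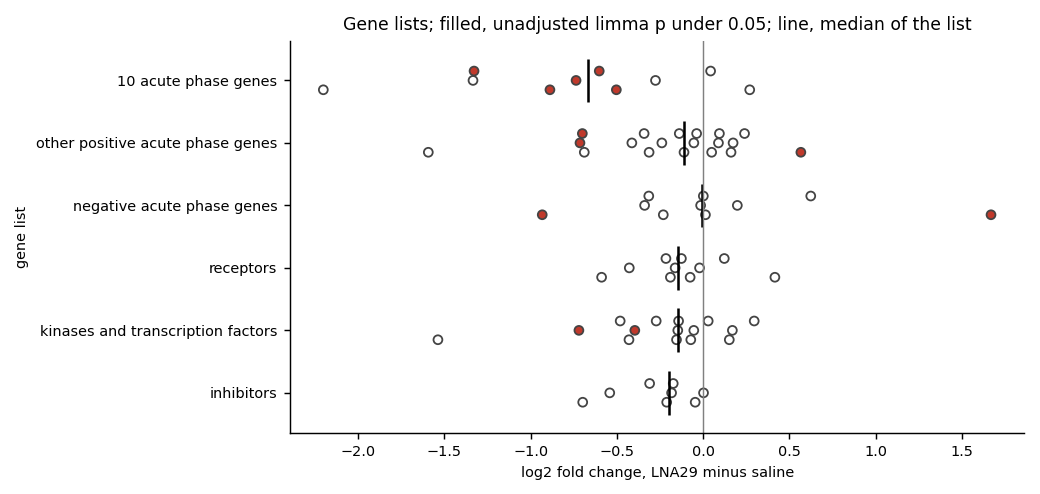
Log2 fold change, LNA29 minus saline, of each tested gene in 6 lists, with filled circles for an unadjusted limma p under 0.05 and a vertical line at the median of the list. The members lie farthest to the left, at a median of −0.67, and the filled circle at 1.67 in the negative acute phase list is Ahsg.

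The mRNAs of the inducing pathway gave few differences in the liver, and the activity of the pathway was not measured. Of 8 cytokine genes 6 (Il6, Tnf, Osm, Lif, Il11 and Il22) were at 3 reads or fewer in every liver, and Il6 was at 0 reads in all 12, which allows up to 3 reads in each. Of 10 receptor genes none passed an unadjusted limma p of 0.05, with −0.19 for Il6ra (0.11 without saline replicate 49) and −0.22 for Il6st, which encode the interleukin 6 receptor and gp130. Of 15 kinases and transcription factors 2 were lower at that level, where 5.97% of all tested genes were lower. The 2 lower genes of this list were Tyk2, a Janus kinase, at −0.72 (adjusted p = 0.455), and Cebpa, a C/EBP factor of mature hepatocytes, at −0.40 (adjusted p = 0.539). Stat3 differed by −0.07, Cebpb by 0.30 and Cebpd by 0.03. Of 8 inhibitors none passed, or 1 without saline replicate 49, and Socs3, a target of STAT3, differed by 0.00 (SE 0.36). The medians of the receptors, the kinases and factors, and the inhibitors were −0.14, −0.15 and −0.20, and without saline replicate 49 they were 0.09, −0.14 and −0.09.

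Among 11 tested receptors and partners of the proteins 2 were lower at an unadjusted limma p under 0.05, Lrp1 as given above and Fcgr1, an Fc receptor that also binds pentraxins, at −1.26 on 1 to 14 reads. None of 10 hepatocyte markers passed that level, their median was 0.09, and each had at least 400 reads in every liver. With saline replicate 49 left out, 1 of them (Apob) was lower, at −0.42, and their median was −0.03. Of 12 Kupffer cell and macrophage markers 2 were higher, Marco at 1.08 and Lyz2 at 0.59, and 9 had a negative difference. Their summed level was 15094 to 24404 scaled reads in saline and 14429 to 28151 in LNA29 livers, and the part of these cells in the results above was not tested. None of 4 tested lymphocyte, 3 adipocyte and 3 blood genes passed the level, and their summed levels overlapped between the groups.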

How the data were processed

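Polyadenylated RNA from whole liver was made into TruSeq libraries and sequenced on a HiSeq 2000 in single reads of 100 bases. The authors aligned the reads with MapSplice2 and estimated reads per gene with RSEM, and their processing notes name the mm9 build. Tool versions and the gene annotation are not given in the sources used here. The deposited values are a signal, the reads of a gene divided within each library by the upper quartile and multiplied by 1000, with genes without reads set to 1. The deposited table also holds the authors' group means, fold changes and p-values, which were not used, and 3 unnamed columns of values that were not used here.

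Whole reads were recovered from the worth of 1 read in each library, with between 92.2% and 93.9% of values whole within 0.02. The test was limma 3.58.1 (R 4.3.3) on log2(value + 1) with a mean-dependent prior, over the 12486 genes whose mean reached 10, adjusted by Benjamini-Hochberg and read at 0.05, beside two-sided exact permutation tests over all 924 divisions of the livers. On this scale 1 was added, while 1 read was worth between 9.80 and 24.4 units. Fold changes of low genes therefore depend strongly on livers with few or no reads. edgeR 4.0.16, DESeq2 1.42.0, other pseudocounts (0.1 and 10), filters, scalings, array weights and leaving out each liver were the alternatives. The scripts were tested on simulated data. Groups came from the labels, and each library is a mouse. The members and lists were chosen with earlier results of these data known. Named genes are all members, list genes with an unadjusted limma p under 0.05, 9 further genes (Saa3, Orm3, Il6, Il6ra, Il6st, Stat3, Socs3, Cebpb and Cebpd), and the 5 genes most like Saa1 and most like Orm1. Other list genes named in the report, such as the fibrinogens, albumin, Cd163 and markers, were chosen after their values were seen, as were the ratios of members and the counts without saline replicate 49. Transcript lengths and 3′ UTRs are of GENCODE M21, promoters and miRNAs of RefSeq, on GRCm38, and no coordinate was carried between builds.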

Additional observations from a re-analysis of the deposited data

Results flagged for a closer look

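In 24 sets of 6 livers, a single liver lay far from the other 5 of its group in 2, where chance alone gives about 1 in 20, or 1.2 here. The first was Crp in saline replicate 49, at 13.3 on the log2(value + 1) scale, where the next saline liver was at 12.9 and the lowest at 12.7. The same library had the lowest share of reads on albumin, 35.7%, and the part of that difference in the Crp value was not tested. The second was the share of reads on the 10 members in LNA29 replicate 48, at 0.665%, where the next LNA29 liver was at 0.399% and the lowest at 0.272%. In that liver Hp and Hpx held 91.4% of the reads on members, and the ratio of Hpx to Hp was 1.66, the highest of the 12 livers.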

How the results depend on the processing

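With all 12 livers, 20 genes were called by limma. The number came to 10 at a common median, 58 with array weights and 72 with DESeq2, and leaving out a liver gave between 1 and 29. None of the members was called in these fits, except that 1, Lcn2, was called without saline replicate 49, so the range over livers left out was 0 to 1. Members with a negative difference kept it in every alternative run. Crp, near 0, was at −0.011 without LNA29 replicate 46 (exact permutation p = 0.920) and between −0.011 and 0.13 over all livers left out, with exact p-values between 0.188 and 0.922. The exact p of Orm2 lay between 0.0216 and 0.0844 over livers left out. Over the same runs the exact permutation p lay between 0.00649 and 0.147 for Orm1 and between 0.00216 and 0.190 for Lcn2. For Apcs the range was 0.0130 to 0.104, and for Hp it was 0.0411 to 0.801. The lowest p of each of these genes was the one without saline replicate 49. DESeq2 placed the median of all genes at 0.03 against −0.09 in limma. With TMM scaling in limma the median of all genes was −0.004 and that of the members was −0.58. No paired analysis was possible because the replicate numbers of the groups are not shared. Saa2 in LNA29 replicates 46 and 50 rests on 4 reads each, which limits the precision of its fold change.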
